A study of Homo sapiens with 48 samples.

Results

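Messenger RNA levels of 38 genes of the G2 phase and of mitosis were followed in BEAS-2B, an immortalised human bronchial epithelial cell line, after vehicle or a cAMP-raising treatment. Ind/GSK was the mixture of indacaterol, an agonist of the β2-adrenoceptor, and GSK 256066, an inhibitor of phosphodiesterase 4, each at 10 nM. GS-5759, also at 10 nM, is 1 molecule with both activities. Confluent cells had been kept for 24 h in medium without growth supplements and were then exposed to vehicle, Ind/GSK or GS-5759 for 1, 2, 6 or 18 h, with 4 replicates in each of the 12 groups and 1 Affymetrix U133 Plus 2.0 array per sample. The labels give the same cell line, medium and confluent state for all groups, and each treatment was given at 1 concentration. Whether each replicate came from its own culture is not stated in the labels, and p-values here reflect the spread among the arrays, which may be technical.

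The genes were taken by name, for their known roles, from a list drawn up with earlier results of these data known. Each was represented by the probe set, among those annotated with its symbol alone, with the highest mean log2(signal + 16) over the 48 arrays. The 38 genes are among 19775 genes with such a probe set, of which 14409 were bright enough to be tested. All 38 were among the tested genes, with mean levels from 9.48 to 13.45 on the log2(signal + 16) scale, far above the filter at 6.51. In bulk RNA, fewer cells in G2 or mitosis and less of each transcript per cell cannot be told apart.

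Transcription of these genes is known to be periodic: it is repressed in resting and G1 cells and rises from late S phase, under complexes that read the cell cycle homology region (CHR) and CCAAT elements of their promoters, with FOXM1, MYBL2 and the MuvB core as main regulators. Cyclin A and cyclin B activate the kinase CDK1 to start mitosis, and the anaphase-promoting complex ends it by destroying the cyclins and securin. They serve as common markers of dividing cells in epithelial cultures.

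The 12 arrays numbered replicate 3 stood apart from the other 36 in keratin genes. KRT14, a basal cell keratin, read 186880 to 441000 in replicate 3 and 13.3 to 31.9 in the others. KRT5 read 29513 to 36309 against 108 to 277, and KRT19 read 2296 to 4520 against 0.0029 to 118. Each group of 4 holds 1 such array, so they are balanced between treatments and times. The median level of the 38 genes over the 12 arrays of each replicate number was 11.90, 11.90, 11.88 and 11.83 for numbers 1 to 4. Whether these 12 arrays hold the same cells as the other 36 was not tested, and results that rest on them are given with and without them. Of the other epithelial markers, KRT8 and KRT18 were bright on all arrays, at 3112 to 6970 and 5313 to 9218, while EPCAM was dim at 28.4 to 256. KRT7 and CDH1 varied widely between arrays, at 246 to 10476 and 173 to 1530. COL1A1, a fibroblast collagen, read 6459 to 10984, and THY1, also on the fibroblast list, had a mean of 1394.8. The other fibroblast genes were dim against the filter signal of 75.42, with means from 77.861 (PDGFRA) to 140.52 (DCN). The leukocyte gene PTPRC and the endothelial genes CDH5 and KDR were below the filter. The other measured leukocyte genes passed it, with means from 85.261 (CD3E) to 118.56 (CD14). Of the endothelial genes, VWF passed at a mean of 76.814 and PECAM1 at 520.38. Above the filter were 7 of 8 measured epithelial, 7 of 7 fibroblast, 3 of 4 leukocyte, 2 of 4 endothelial and 1 of 3 ciliated or club cell markers. Their part in the results was not tested.

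In vehicle-treated cells the genes moved with time although no drug was added. Their median level per array fell from 12.01 ± 0.15 (SD, n = 4) at 1 h to 11.85 ± 0.13 at 2 h and 11.69 ± 0.07 at 6 h, and stood at 12.25 ± 0.11 at 18 h, all on the log2(signal + 16) scale. The 4 arrays at 6 h, at 11.76, 11.68, 11.60 and 11.73, lay below the 4 at 18 h, at 12.21, 12.11, 12.31 and 12.36, with no overlap. The median over all 14409 tested genes stayed between 9.41 and 9.50 in the same vehicle groups. With treatment the median went from 11.57 at 2 h to 11.55 at 6 h with Ind/GSK and from 11.64 to 11.66 with GS-5759, and both groups stood highest at 18 h.

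**Figure D1:**
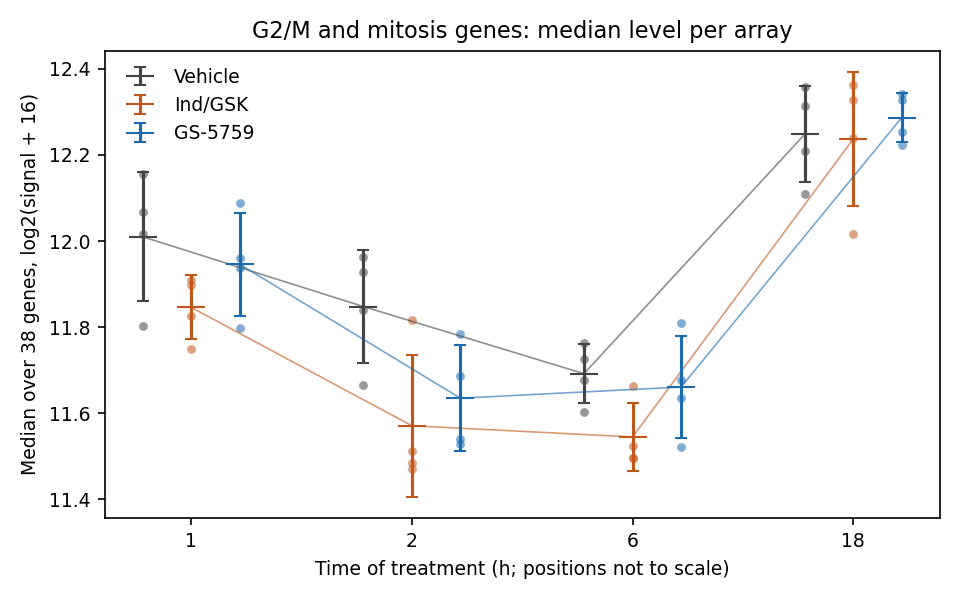
Median level of the 38 G2/M and mitosis genes in each array, in log2(signal + 16), against time in h (positions not to scale); points are arrays, lines join the group means and bars are SDs (n = 4). The treated groups lie lowest at 2 h and 6 h, and all 3 treatments lie highest at 18 h, at 12.25 for vehicle, 12.24 for Ind/GSK and 12.29 for GS-5759.

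From 6 to 18 h in vehicle, 36 of the 38 genes rose and none fell, at an adjusted p under 0.05 by limma over the 14409 tested genes, of which 7.97% rose. All 38 differences were above 0, as were 52.3% of those of tested genes, with a median of 0.53 on the log2(signal + 16) scale against 0.01 over all tested genes, and in 36 genes every array at 18 h exceeded every array at 6 h, which 9.9% of tested genes also did. Without replicate 3, 29 rose, and with replicate number as a block 37 rose (19.5% of tested genes). All 7 mitotic kinases and activators, all 6 kinetochore and centromere genes, all 7 motor and spindle genes and all 6 checkpoint genes were among the 36. The 2 that did not pass by limma were CDC25B, a phosphatase that activates CDK1, at 0.14 ± 0.10 (SE, adjusted p = 0.436), and BIRC5, the survivin subunit of the chromosomal passenger complex, at 0.18 ± 0.12 (adjusted p = 0.3728, and 0.009296 with the block).

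CDC25C, the phosphatase that removes inhibitory phosphates from CDK1 at mitotic entry, had the largest rise in vehicle. Its signals at 6 h were 1164, 1282, 1051 and 1108, and at 18 h 2128, 2156, 2179 and 2394. The groups were far apart, a difference of 0.94 ± 0.11 on the log2(signal + 16) scale (SE, adjusted p = 2.39e-07 by limma). NUF2, a subunit of the NDC80 complex that ties kinetochores to microtubules, read 2679, 2283, 2119 and 2606 at 6 h and 3857, 3552, 4239 and 5138 at 18 h, a rise of 0.78 ± 0.13 (adjusted p = 4.959e-05 by limma). CENPA, the histone H3 variant that marks centromeres, read 1773, 1622, 1384 and 1489 at 6 h and 2501, 2586, 2541 and 3158 at 18 h, a rise of 0.78 ± 0.12 (adjusted p = 2.071e-05 by limma). BUB1, a kinase of the spindle checkpoint, read 2375, 2018, 1790 and 1945 at 6 h and 3350, 3105, 3525 and 3887 at 18 h, a rise of 0.77 ± 0.13 (adjusted p = 6.021e-05 by limma). In none of these 4 genes did the 6 h and 18 h arrays overlap. The smallest rises that passed were those of BUB3 (0.21), PTTG1, which encodes securin (0.22), and NUSAP1, a spindle protein (0.30).

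The fall before 6 h was spread over the earlier steps and passed the test mainly when 6 h was set against 1 h, a comparison added after the course had been seen. There 18 genes fell and none rose, against 3.47% of tested genes that fell. All 38 differences were below 0 (55.1% of tested genes), with a median of -0.37 on the log2(signal + 16) scale. The count was 30 with the replicate block (13.6% of tested genes) and 11 without replicate 3. Leaving out the 12 arrays of replicate 2 left 3, and leaving out those of replicate 1 left 10. CDC25C fell most, by 0.80 on that scale, from 2262, 2283, 1807 and 1772 at 1 h, and PLK1, the polo-like kinase of mitotic entry, fell by 0.67. Between 1 and 2 h none of the 38 passed by limma, where 1.69% of tested genes were lower. At an unadjusted p under 0.05 there were 11 (16.7% of tested genes), and with the block 9 were lower (12.3%). Between 2 and 6 h CDC25C alone passed, at -0.47 ± 0.11 (SE, adjusted p = 0.03999 by limma), from 1674, 1572, 1565 and 1575 at 2 h, where 0.132% of tested genes fell. With the block 7 genes fell in that step (1.5% of tested genes), and without any 1 of 7 of the 8 arrays CDC25C no longer passed. At 18 h the genes stood slightly above 1 h, with BUB1B, CDK1 and NUSAP1 higher (median of all 38 genes 0.15, 1.9% of tested genes higher). Without replicate 3 the genes that passed were AURKB, BUB1B and CDK1. With the block 13 were higher (9% of tested genes), without vehicle 1 h replicate 4 the count was 1, without vehicle 1 h replicate 2 it was 6, and without all arrays of replicate 4 it was 0.

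At 2 h both treatments lowered a subset of the genes. With Ind/GSK 12 of the 38 fell and none rose, against 2.15% of tested genes that fell and 1.34% that rose. With GS-5759 6 fell and none rose, against 0.833% and 1.6%. All 38 differences from vehicle were below 0 with Ind/GSK (67.7% of tested genes), and their median was -0.26 on the log2(signal + 16) scale against -0.05 over all tested genes. With GS-5759 37 were below 0 (53.9% of tested genes), and the median was -0.21 against -0.01. The 4 treated arrays lay below the 4 vehicle arrays in 10 genes with Ind/GSK and 7 with GS-5759, which held for 5.77% and 5.39% of tested genes. Both comparisons use the same 4 vehicle arrays. The 6 genes that fell with GS-5759, namely BORA, CCNF, HJURP, CDCA8, AURKA and CENPA, are 6 of 6 on that list and 6 of 12 on the Ind/GSK list.

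BORA, the cofactor through which Aurora A activates PLK1, fell most with Ind/GSK. Its signals at 2 h were 904, 854, 928 and 749 in vehicle, 535, 479, 390 and 375 with Ind/GSK and 566, 471, 368 and 419 with GS-5759. Every treated array lay below every vehicle array, a difference of -0.94 ± 0.12 for Ind/GSK (SE, 0.523 of vehicle, adjusted p = 2.348e-06 by limma) and -0.90 ± 0.12 for GS-5759 (adjusted p = 4.024e-06 by limma).

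CCNF, cyclin F, the substrate receptor of a ubiquitin ligase active in G2, read 607, 795, 578 and 696 in vehicle at 2 h. It read 428, 395, 267 and 355 with Ind/GSK and 389, 405, 242 and 379 with GS-5759. Neither treated group overlapped vehicle, and the differences were -0.87 ± 0.15 (SE, adjusted p = 0.0003431 by limma) and -0.91 ± 0.15 (adjusted p = 0.0001719 by limma).

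HJURP, the chaperone that loads CENPA at centromeres, read 2733, 2310, 2389 and 2071 in vehicle at 2 h. It read 1854, 1376, 1141 and 1291 with Ind/GSK and 1915, 1375, 1146 and 1311 with GS-5759. The groups again did not overlap, with differences of -0.76 ± 0.13 (SE, adjusted p = 0.0002765 by limma) and -0.74 ± 0.13 (adjusted p = 0.0003286 by limma).

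CDCA8, the borealin subunit of the chromosomal passenger complex, read 2387, 2362, 2208 and 1868 in vehicle at 2 h. It read 1698, 1502, 1168 and 1291 with Ind/GSK and 1726, 1502, 1210 and 1386 with GS-5759, all below the lowest vehicle array. The differences were -0.64 ± 0.11 (SE, adjusted p = 0.0003649 by limma) and -0.60 ± 0.11 (adjusted p = 0.0008742 by limma). BORA, CCNF, HJURP and CDCA8 passed for both treatments in each of the 8 fits per treatment that left out 1 array, and also without the 12 arrays of replicate 3.

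AURKA, the Aurora A kinase of centrosomes and spindle poles, read 7003, 6303, 5544 and 5487 in vehicle at 2 h. It read 5269, 3686, 3523 and 3560 with Ind/GSK and 5238, 4319, 3442 and 3326 with GS-5759. Replicate 1 was the highest in all 3 groups, and the treated arrays still lay below vehicle. The differences were -0.61 ± 0.15 (SE, adjusted p = 0.009525 by limma) and -0.59 ± 0.15 (adjusted p = 0.01535 by limma). Without replicate 3 the GS-5759 difference no longer passed (adjusted p = 0.06876 by limma), and it was also lost when GS-5759 replicate 3, GS-5759 replicate 4 or vehicle replicate 1 was left out singly. The Ind/GSK call was lost when the Ind/GSK array of replicate 3 was left out.

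**Figure D2:**
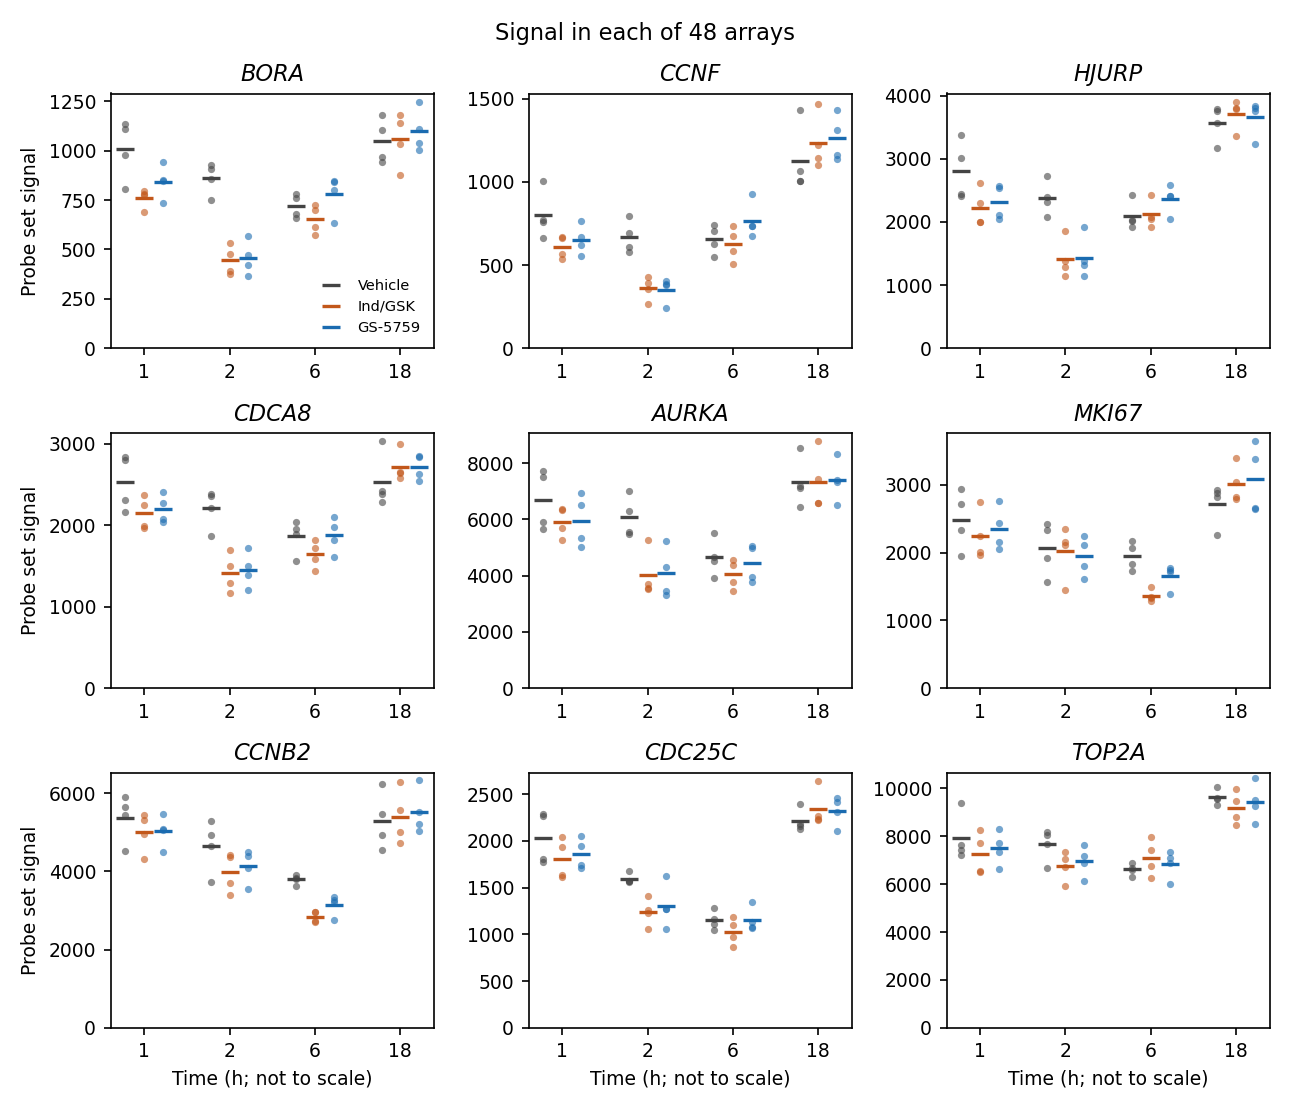
Probe set signal (linear axis from 0) of 9 of the genes in each of the 48 arrays against time in h (positions not to scale), with points for arrays and lines through group means. For BORA the 8 treated arrays at 2 h read 368 to 566 and the 4 vehicle arrays 749 to 928, and the groups come back together by 6 h.

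The other 7 falls with Ind/GSK at 2 h were smaller. CENPA read 1977, 1944, 1815 and 1631 in vehicle, 1562, 1429, 1150 and 1291 with Ind/GSK and 1646, 1347, 1184 and 1252 with GS-5759, a fall of 0.44 with each on the log2(signal + 16) scale (adjusted p = 0.02813 and 0.03302 by limma). The GS-5759 array of replicate 1 overlapped vehicle. CDCA3, which targets WEE1 for degradation at mitotic entry, read 4371, 4071, 3928 and 3421 in vehicle and 3496, 3019, 2723 and 2637 with Ind/GSK, with 1 treated array above the lowest vehicle array (-0.41 ± 0.11, adjusted p = 0.01927 by limma). Its GS-5759 values were 3633, 3269, 2896 and 2604, a difference of -0.35 that did not pass (adjusted p = 0.06842 by limma).

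NDC80, the kinetochore subunit that binds microtubules, read 4057, 3590, 3596 and 3057 in vehicle at 2 h and 3351, 2207, 2568 and 2592 with Ind/GSK. The groups overlapped through replicate 1, and the difference was -0.42 ± 0.11 (SE, adjusted p = 0.02806 by limma). With GS-5759 NDC80 read 3322, 3140, 2485 and 2685. TTK, the MPS1 kinase of the spindle checkpoint, read 3809, 4032, 3487 and 3503 in vehicle, 3279, 2716, 2422 and 3031 with Ind/GSK and 3215, 3294, 2587 and 3134 with GS-5759. All treated arrays of TTK lay below vehicle, with differences of -0.38 ± 0.11 for Ind/GSK (adjusted p = 0.04666 by limma) and -0.28 for GS-5759 (adjusted p = 0.2331 by limma). CDC25C (-0.37), the checkpoint gene BUB1B (-0.31) and PRC1, the microtubule bundler of the spindle midzone (-0.19), also fell with Ind/GSK.

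The calls of these smaller falls were often lost when any 1 of several arrays was left out, and some depended on the scaling. CDC25C, TTK and PRC1 each kept their call in 1 of the 8 fits that left out 1 array, NDC80 in 2, CENPA in 3, CDCA3 in 4 and BUB1B in 6. For GS-5759 the CENPA call was kept in 2 of 8. The Ind/GSK calls of CDC25C, TTK and PRC1 were lost with 75th percentile centring, with quantile normalization and without the filter. That of CENPA was lost with the centring, and those of CDC25C and CDCA3 when all probe sets were averaged. Leaving out 1 array turned the count of 12 into 4 (Ind/GSK replicate 3), 6 (Ind/GSK replicate 4, vehicle replicate 1 or vehicle replicate 2) or 7 (vehicle replicate 3). Without the 12 arrays of replicate 2 it was 4, and without those of replicate 3 it was 5 (AURKA, BORA, CCNF, CDCA8 and HJURP), and for GS-5759 it was 4 (BORA, CCNF, CDCA8 and HJURP). With replicate number as a block the counts were 20 and 16, all lower, against 8.09% and 4.05% of tested genes called lower in that fit. That fit added CCNB1, AURKB, KIF2C, KIF20A, TPX2 and BIRC5 for both treatments, KIF23 and UBE2C for Ind/GSK, and CDCA3, CDC25C, TTK and BUB1B for GS-5759. In a fit to the 8 compared arrays alone BORA was the gene that passed for each treatment, and CCNF, HJURP and CDCA8 had adjusted p-values of 0.07248 to 0.1093.

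By role, the calls at 2 h with Ind/GSK were spread over the division machinery. They were 3 of 7 mitotic kinases and activators (BORA, AURKA and TTK), 3 of 6 kinetochore and centromere genes (HJURP, CENPA and NDC80), 2 of 7 cyclin and CDK1 regulators (CCNF and CDC25C), 2 of 6 checkpoint and anaphase genes (BUB1B and CDCA3), 1 of 3 passenger complex genes (CDCA8) and 1 of 7 motor and spindle genes (PRC1). Neither TOP2A, the topoisomerase of chromosome segregation, nor MKI67, the Ki-67 antigen, passed at 2 h. MKI67 read 2339, 1926, 2426 and 1572 in vehicle and 2349, 2155, 2115 and 1444 with Ind/GSK, values that overlap (difference -0.04, adjusted p = 0.9955 by limma). The smallest of the other differences with Ind/GSK were those of CDC25B (-0.04), CENPF (-0.07), BUB3 (-0.08) and PTTG1 (-0.09).

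**Figure D3:**
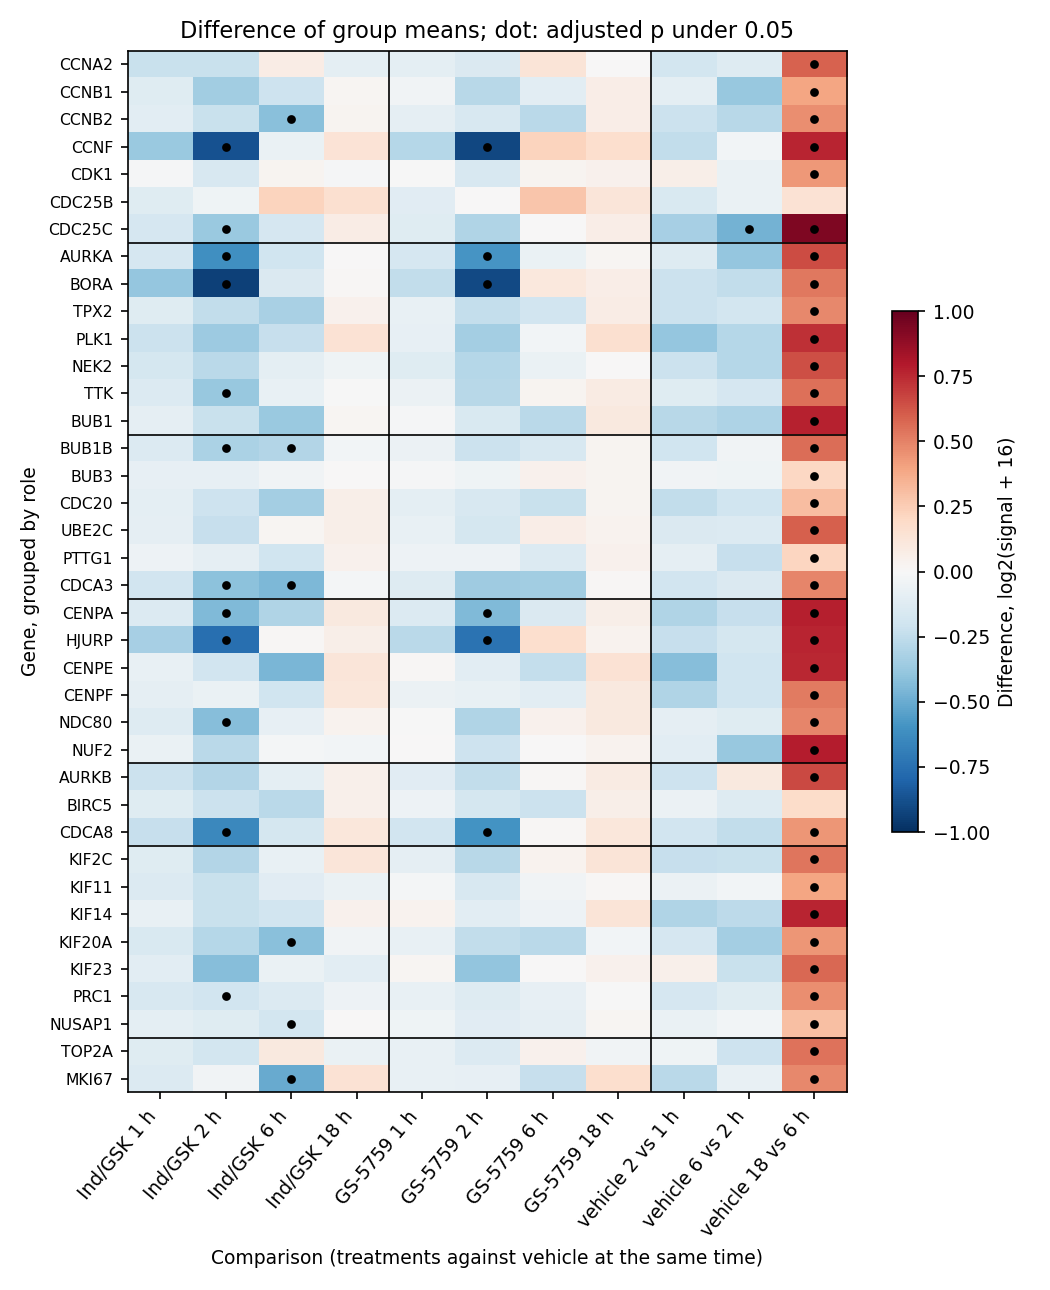
Difference of group means on the log2(signal + 16) scale (colour) for each of the 38 genes, grouped by role, in each comparison; a dot marks an adjusted p under 0.05 by limma. Dots at 2 h fall on 12 genes for Ind/GSK and 6 for GS-5759, none appears at 1 h or 18 h of treatment, and 36 appear for vehicle at 18 h against 6 h.

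The promoters of the genes that fell with both treatments at 2 h are shown here with the elements known from this gene class. RefSeq promoters of GRCh38.p14 were at hand for 5 of those 6 genes, and the 250 bases before the start site are printed 5′ to 3′ on the gene's strand. Capitals mark the CHR in its main form TTTGAA or its variant TTCGAA, and the CCAAT box core, each on either strand. An ATTGG is CCAAT on the other strand, and in CDCA8 a TTTGAA and an ATTGG share 1 base.
BORA, chr13:72727673-72727922, plus strand: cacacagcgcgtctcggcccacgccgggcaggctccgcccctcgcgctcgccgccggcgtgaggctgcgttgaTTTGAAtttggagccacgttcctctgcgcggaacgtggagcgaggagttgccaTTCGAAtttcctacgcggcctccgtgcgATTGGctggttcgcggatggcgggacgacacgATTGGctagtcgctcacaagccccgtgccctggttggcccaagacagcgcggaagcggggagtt
CCNF, chr16:2429197-2429446, plus strand: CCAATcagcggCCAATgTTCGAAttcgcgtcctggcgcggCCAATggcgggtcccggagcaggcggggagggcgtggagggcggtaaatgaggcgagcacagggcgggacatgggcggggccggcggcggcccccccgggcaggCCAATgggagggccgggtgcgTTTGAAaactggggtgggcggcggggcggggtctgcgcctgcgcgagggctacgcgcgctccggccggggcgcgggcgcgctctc
HJURP, chr2:233854536-233854785, minus strand: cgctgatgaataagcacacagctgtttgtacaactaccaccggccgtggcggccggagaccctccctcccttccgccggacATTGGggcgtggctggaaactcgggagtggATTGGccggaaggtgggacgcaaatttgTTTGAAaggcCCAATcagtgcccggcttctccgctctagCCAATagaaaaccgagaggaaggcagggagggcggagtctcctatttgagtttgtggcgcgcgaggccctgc
CDCA8, chr1:37692266-37692515, plus strand: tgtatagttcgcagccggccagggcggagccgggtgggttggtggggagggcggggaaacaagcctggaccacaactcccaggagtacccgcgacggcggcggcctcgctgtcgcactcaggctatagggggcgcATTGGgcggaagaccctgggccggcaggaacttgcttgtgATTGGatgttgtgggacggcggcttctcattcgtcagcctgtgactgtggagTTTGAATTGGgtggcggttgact
CENPA, chr2:26785806-26786055, plus strand: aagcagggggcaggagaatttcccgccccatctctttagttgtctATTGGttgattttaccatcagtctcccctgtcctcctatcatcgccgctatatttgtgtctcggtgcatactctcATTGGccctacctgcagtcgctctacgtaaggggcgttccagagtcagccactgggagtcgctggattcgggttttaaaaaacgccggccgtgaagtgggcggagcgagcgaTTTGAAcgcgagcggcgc

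All 5 of these promoters held TTTGAA and CCAAT, and those of BORA and CCNF also held TTCGAA. Over the 300 bases from 250 before to 50 after the start site, promoters were matched for 32 of the 38 genes, 41 promoters in all (none was matched for TPX2, AURKA, UBE2C, BIRC5, TTK and BUB3). TTTGAA was in 24 of the 41 (58.5%) and in 15.2% of the 35116 promoters in the RefSeq table. TTCGAA was in 12.2% against 1.45%, CCAAT in 78% against 34.6%, and CCAAT together with either CHR form in 56.1% against 6.38%. The cAMP response element TGACGTCA was in 4 (9.76%) against 1.85%. This full form was in none of the promoters of the 5 genes that fell with both treatments, and shorter forms were not searched.

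Among the 10 genes with a promoter that fell with either treatment at 2 h, 10 held TTTGAA, 8 held CCAAT and 2 held TGACGTCA. Among the other 22 genes, 12 held TTTGAA, 19 held CCAAT and 2 held TGACGTCA. The counts describe letters in a window around an annotated start and were not tested.

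**Figure D4:**
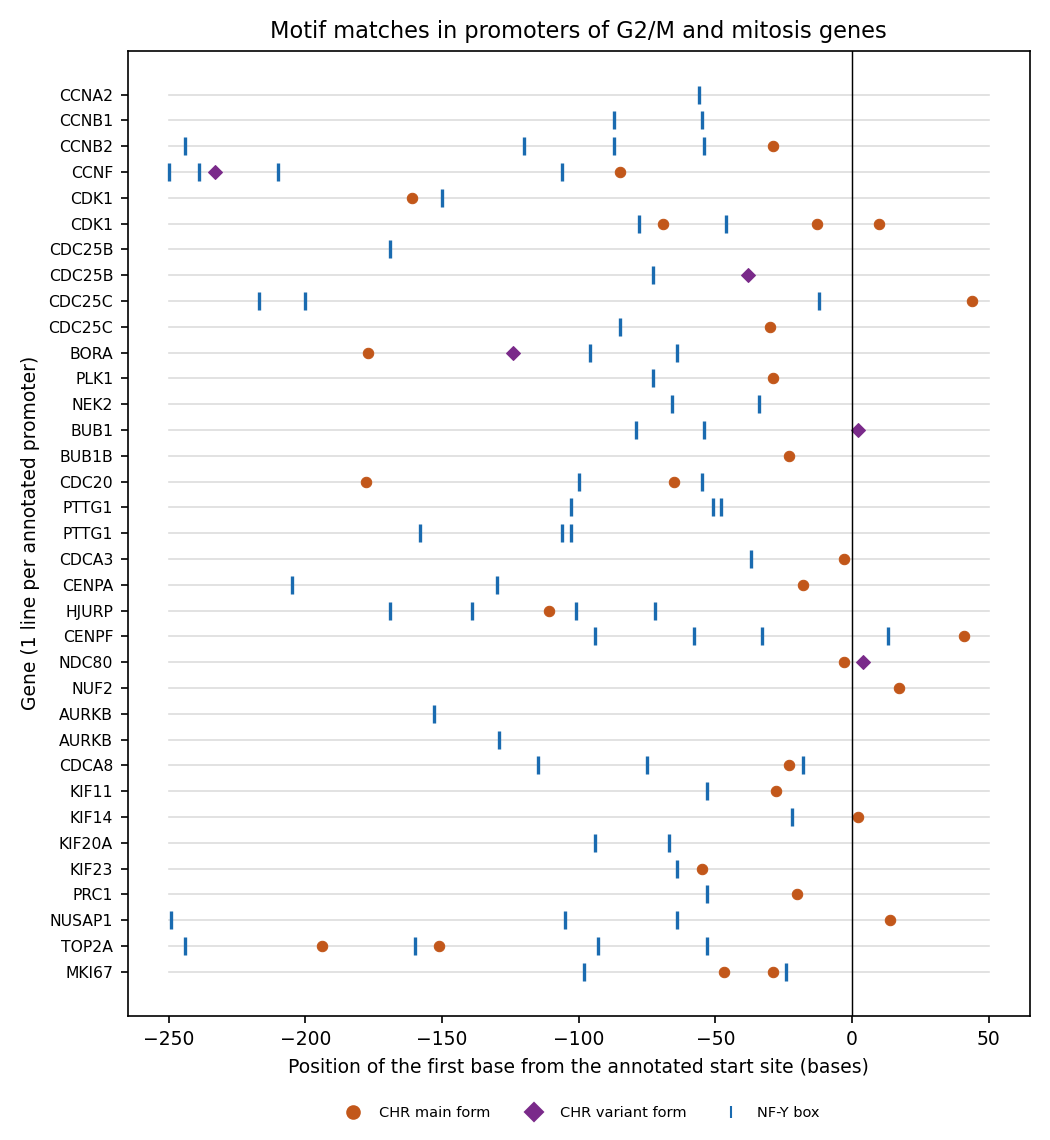
Positions of matches to the CHR (main form, circles; variant form, diamonds) and to the NF-Y (CCAAT) box (bars) in bases from the annotated start site, 1 line per promoter. The 35 promoters with a match, of 30 genes, are drawn, and CHR circles appear on the lines of all 10 genes that fell at 2 h and have a promoter.

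At 1 h all 38 differences were below 0 with Ind/GSK (78.1% of tested genes), but their median of -0.12 was close to that of all tested genes (-0.10), and centring each array on its 75th percentile brought the medians to -0.0039 and 0.024. None of the 38 passed by limma with either treatment (at an unadjusted p under 0.05 there were 5 with Ind/GSK and 1 with GS-5759, against 18.4% and 4.17% of tested genes), where 1.38% and 0.0139% of tested genes were lower. With the block BORA (-0.39), CCNF (-0.37), HJURP (-0.33), AURKB and PRC1 fell with Ind/GSK, a smaller share than the 15.8% of tested genes called lower in that fit, and none with GS-5759. BORA read 1133, 1110, 976 and 806 in vehicle at 1 h, 795, 781, 775 and 689 with Ind/GSK and 846, 941, 849 and 734 with GS-5759. The Ind/GSK arrays lay below vehicle and those of GS-5759 overlapped it.

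At 6 h a partly different subset passed the test with Ind/GSK. There 6 genes fell and none rose, against 2.7% of tested genes that fell and 1.03% that rose: MKI67, CDCA3, KIF20A, CCNB2, BUB1B and NUSAP1. CDCA3 and BUB1B, 2 of these 6 and 2 of the 12 at 2 h, were on both lists, which use different arrays. KIF20A, CCNB2 and NUSAP1 had been at -0.29, -0.22 and -0.12 at 2 h without passing. Of the 38 differences 32 were below 0 (61.9% of tested genes), with a median of -0.17 against -0.04 over all tested genes. With GS-5759 none passed by limma, where 0.548% of tested genes were lower, and 8 had an unadjusted p under 0.05 (12.4% of tested genes). Of those differences 21 were below 0 (50.6% of tested genes) and the median was -0.04.

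MKI67, a protein of the chromosome surface and a common marker of cycling cells, read 2168, 1722, 1824 and 2064 in vehicle at 6 h, 1494, 1291, 1336 and 1342 with Ind/GSK and 1746, 1769, 1713 and 1385 with GS-5759. The Ind/GSK arrays lay below vehicle and those of GS-5759 overlapped it, with differences of -0.50 ± 0.15 (SE, adjusted p = 0.04492 by limma) and -0.23 (adjusted p = 0.5729 by limma). The Ind/GSK call for MKI67 was lost with arrays centred on their 75th percentile, with quantile normalization, without the filter and in the fit to the compared arrays alone (adjusted p up to 0.1331 by limma), and it was kept in 1 of 8 fits that left out 1 array. CCNB2, cyclin B2, read 3921, 3816, 3823 and 3628 in vehicle, 2965, 2953, 2699 and 2723 with Ind/GSK and 3230, 3270, 3333 and 2752 with GS-5759. All its treated arrays lay below vehicle, and the differences were -0.42 ± 0.11 (adjusted p = 0.01861 by limma) and -0.27 (adjusted p = 0.2508 by limma). When all probe sets of a gene were averaged, the CCNB2 difference with Ind/GSK was 0.01 (adjusted p = 0.9965 by limma). Its call therefore rests on the brightest probe set, which had a mean log2 level of 12.11. The other CCNB2 probe sets were much dimmer, at 7.69 and, below the filter, 4.96. Their differences with Ind/GSK at 6 h were 0.28 and 0.16. No CCNB2 probe set of similar brightness was there to compare.

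KIF20A, a kinesin of cytokinesis, read 6770, 6618, 5419 and 5358 in vehicle at 6 h, 5016, 5023, 4355 and 3674 with Ind/GSK and 5659, 5324, 5258 and 3848 with GS-5759. The Ind/GSK arrays did not overlap vehicle (-0.42 ± 0.10, SE, adjusted p = 0.01075 by limma), while those of GS-5759 did (-0.27, adjusted p = 0.2054 by limma). CDCA3 read 3957, 3736, 3259 and 3340 in vehicle, 2682, 2857, 2148 and 2774 with Ind/GSK and 2866, 3022, 2594 and 2711 with GS-5759. Neither treated group of CDCA3 overlapped vehicle, and the differences were -0.45 ± 0.11 (adjusted p = 0.00903 by limma) and -0.35 (adjusted p = 0.09089 by limma). BUB1B fell by 0.30 and NUSAP1 fell by 0.19 with Ind/GSK.

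The 6 h calls depended on the arrays and the fit. None of the 6 passed without the 12 arrays of replicate 3, 1 or 2, and 1 passed without Ind/GSK replicate 3 or vehicle replicate 1. With the replicate block 14 genes fell and CDC25B rose with Ind/GSK (13.1% of tested genes lower and 4.68% higher in that fit), and 4 fell and CDC25B rose with GS-5759 (4.58% and 6.01%). Without replicate 3 but with the block, 9 fell with Ind/GSK (MKI67, CDCA3, KIF20A, CCNB2, BUB1B, CDC20, PTTG1, TPX2 and BIRC5) and 3 with GS-5759 (CDCA3, KIF20A and BIRC5). CDC25B, named after its values were seen, had the highest difference at 6 h: it read 3154, 3199, 3072 and 2950 in vehicle, 3699, 3836, 3657 and 3288 with Ind/GSK and 3640, 4040, 3978 and 3354 with GS-5759. All 8 treated arrays lay above vehicle, at 0.22 and 0.27 on the log2(signal + 16) scale (adjusted p = 0.2801 and 0.2086 by limma).

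**Figure D5:**
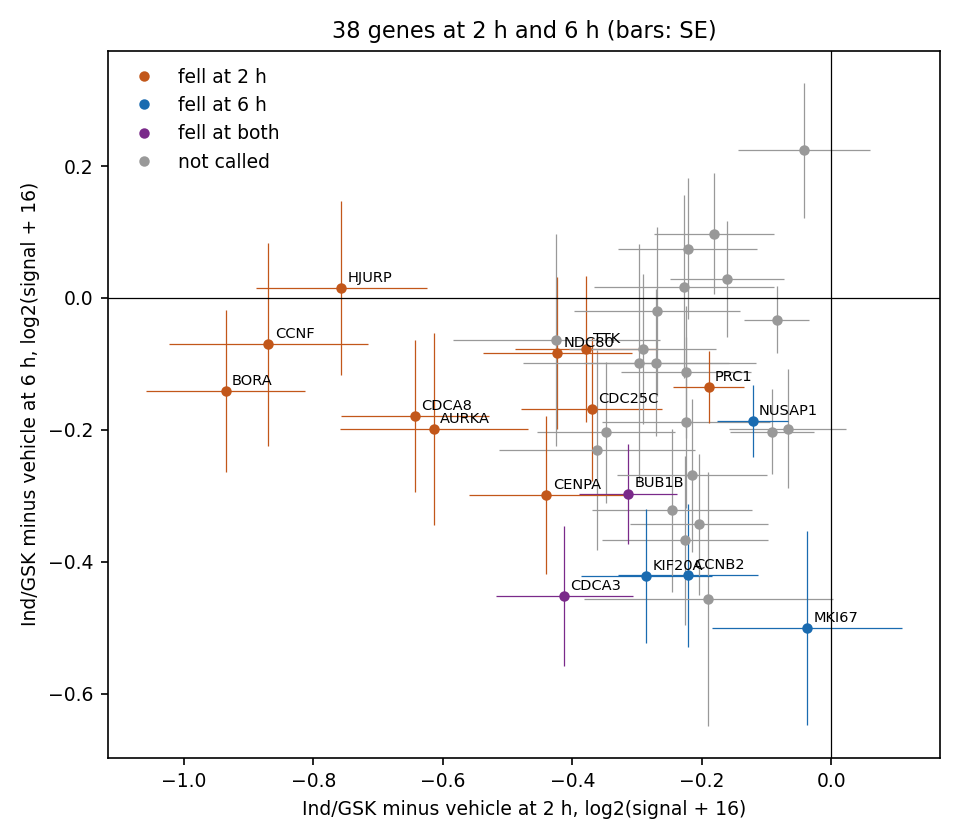
Difference between Ind/GSK and vehicle at 6 h against that at 2 h for the 38 genes, both in log2(signal + 16), with bars for the SE. BORA, CCNF and HJURP lie far to the left, at -0.94, -0.87 and -0.76, and near 0 on the 6 h axis, while MKI67 lies at -0.04 on the 2 h axis and -0.50 on the 6 h axis.

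The change of the response between times was tested on the mean of both treatments. From 2 to 6 h the difference from vehicle of BORA moved by 0.90 ± 0.15 (SE, adjusted p = 0.001101 by limma), that of CCNF by 0.96 ± 0.19 (adjusted p = 0.006865) and that of HJURP by 0.84 ± 0.16 (adjusted p = 0.005362), each towards 0 or above. Of all tested genes 0.312% moved up in this test by limma. BORA at 6 h read 783, 760, 677 and 659 in vehicle, 701, 724, 611 and 573 with Ind/GSK and 800, 844, 839 and 633 with GS-5759, all 3 groups overlapping. CCNF read 624, 707, 548 and 739 in vehicle at 6 h, 586, 675, 504 and 734 with Ind/GSK and 674, 925, 733 and 736 with GS-5759. CDCA8 and AURKA moved by 0.54 and 0.47 without passing (adjusted p = 0.07044 and 0.3957 by limma), and passed with the block, as 2.21% of tested genes did. MKI67 moved the other way by -0.31 (adjusted p = 0.7873 by limma), so its 2 h and 6 h responses were not shown to differ. KIF20A, CCNB2 and NUSAP1, also called at 6 h and not at 2 h, did not pass this test either. Without replicate 3 BORA and CCNF passed, none did when the arrays of replicate 2 were left out, and 1 did when those of replicate 4 were. From 1 to 2 h no member passed by limma, nor did any tested gene move down (0%), and 7 had an unadjusted p under 0.05 (7.85% of tested genes). BORA, CCNF and HJURP moved down with the block (0.444%). From 6 to 18 h none passed by limma, where 0.174% of tested genes moved up, and 14 had an unadjusted p under 0.05 (7.97%). With the block 8 moved up (2.92%): PTTG1, BIRC5, KIF20A, TPX2, CDC20, CDCA3, CCNB2 and MKI67.

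At 18 h no difference between treated and vehicle groups was detected in the 38 genes. No member passed by limma with either treatment, where 0.0486% of tested genes passed for Ind/GSK and 0% for GS-5759. No member reached an unadjusted p under 0.05, against 5.89% and 3.21% of tested genes. None passed with the block, in which 0.514% of tested genes were higher and 1.37% lower with Ind/GSK, and 0.0972% higher and 0.0486% lower with GS-5759. The differences ranged from -0.11 to 0.16 with Ind/GSK and from -0.03 to 0.17 with GS-5759. MKI67, lowest of the 38 with Ind/GSK at 6 h, stood at 0.15 and 0.17. The treated cells rose from 6 to 18 h as the vehicle did: 37 genes rose in each treatment (median 0.73 with Ind/GSK and 0.63 with GS-5759), against 13.3% and 9.23% of tested genes, and without replicate 3 36 rose in each. CDC25B was the gene that did not pass in either. CENPE, the kinesin of chromosome alignment, rose by 1.33 with Ind/GSK and 1.14 with GS-5759, and CDC25C by 1.18 and 1.00.

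GS-5759 and Ind/GSK were not told apart. At 1, 2, 6 and 18 h no member and none of the 14409 tested genes passed by limma in the direct comparison, with or without the block. In the limma fit without the block the smallest adjusted p of a member was 0.769. Over all tested genes, 855, 273, 468 and 54 had an unadjusted p under 0.05 at 1, 2, 6 and 18 h (5.93%, 1.89%, 3.25% and 0.375%). At an unadjusted p under 0.05 the members counted 0, 0, 1 and 0, the 1 being BORA at 6 h. The median difference of the 38 genes, GS-5759 minus Ind/GSK, was 0.07, 0.04, 0.11 and 0.03, against 0.09, 0.05, 0.05 and 0.03 over all tested genes. With arrays centred on their 75th percentile the 1, 2 and 18 h medians turned below 0 and the 6 h median was 0.03. At 2 h the 95% interval of the difference was -0.21 to 0.28 for BORA, -0.35 to 0.27 for CCNF, -0.25 to 0.29 for HJURP and -0.19 to 0.28 for CDCA8. Over all 38 genes at 2 h the intervals reached from -0.35 to 0.47. At 6 h the interval for MKI67 was -0.03 to 0.57 and that for CCNF -0.02 to 0.61, and both hold 0.

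Of 64 further G2/M and mitosis genes tested, 16 fell and none rose with Ind/GSK at 2 h, against 2.15% of tested genes that fell. With GS-5759 10 fell and none rose, against 0.833% that fell. Without replicate 3 the counts were 5 and 3, and with the block 30 and 20 (8.09% and 4.05% of tested genes). The largest falls were those of PSRC1, a spindle protein (-0.74 and -0.71), FAM83D, which localises casein kinase 1 to the spindle (-0.71 and -0.66), and CDCA2, a phosphatase subunit of mitotic chromatin (-0.61 and -0.55). At 6 h 9 of the 64 fell with Ind/GSK, among them DLGAP5 (-0.45), OIP5 (-0.43) and the phosphatase CDKN3 (-0.40), and CDKN3 alone fell with GS-5759 (-0.33). Of all tested genes 2.7% and 0.548% fell at 6 h. Without replicate 3 those counts of the 64 were 5 and 3, and with the block 22 and 6 (13.1% and 4.58% of tested genes). From 6 to 18 h in vehicle 44 of the 64 rose (median 0.38), against 7.97% of tested genes, and none fell. Without replicate 3 31 rose.

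Genes of G1/S and DNA replication took another course in vehicle from 6 to 18 h, and few were called with treatment. Their differences from vehicle were still mostly below 0. With Ind/GSK 34 of 41 were below 0 at 2 h and 35 at 6 h (67.7% and 61.9% of tested genes). Both medians were -0.11. With GS-5759 30 were below 0 at 2 h and 27 at 6 h (53.9% and 50.6%), with medians of -0.06 and -0.04. Of 41 tested, CDC7, a kinase of replication origins, was the one that fell with Ind/GSK at 2 h (-0.33), against 2.15% of tested genes. None fell with GS-5759 at 2 h (0.833% of tested genes) or at 6 h with Ind/GSK (2.7%) or GS-5759 (0.548%). With the block 2 and 4 fell with Ind/GSK at 2 and 6 h, and 1 with GS-5759 at each of these times. In that fit 8.09% and 13.1% of tested genes were lower with Ind/GSK, and 4.05% and 4.58% with GS-5759. From 6 to 18 h in vehicle, where the mitotic genes rose, 22 of the 41 fell and 1 rose (median -0.39, and 24 fell without replicate 3), against 3.57% of tested genes that fell.

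Of 18 tested transcription regulators of this gene class, LIN37, a subunit of the MuvB core, fell with Ind/GSK at 1 h (-0.33 ± 0.07, SE, adjusted p = 0.01614 by limma). With the block 6 of the 18 fell at that time, against 15.8% of tested genes in that fit. LIN9, another MuvB subunit, fell with Ind/GSK at 2 h (-0.42 ± 0.11, SE, adjusted p = 0.02306 by limma) and was at -0.26 with GS-5759 (adjusted p = 0.2835 by limma, 0.03235 with the block). Without replicate 3 neither LIN9 nor the G1/S gene CDC7 passed at 2 h. FOXM1 was at -0.13 and -0.03 and MYBL2 at -0.08 and -0.00 at 2 h, none of them called with or without the block. NFYB, a subunit of the CCAAT-binding factor NF-Y, was at -0.16 and -0.17 (adjusted p = 0.4177 and 0.4499 by limma, 0.03632 and 0.03843 with the block). E2F8, a repressor of the E2F family, was at -0.61 with each treatment with an SE of 0.40 (adjusted p = 0.5651 and 0.6105 by limma, 0.007816 and 0.01064 with the block). CDKN1A, which encodes the CDK inhibitor p21, was at 0.10 and 0.22 (adjusted p = 0.9671 and 0.8049 by limma, the latter 0.02452 with the block). At 6 h RBBP4 fell with Ind/GSK (-0.17), a call also lost without replicate 3, and FOXM1 was at -0.27 (adjusted p = 0.06265 by limma, 0.007899 with the block). With the block 4 of the 18 fell and CDKN1A rose with Ind/GSK at 6 h, against 13.1% of tested genes lower and 4.68% higher. CDKN1A and LIN37 rose with GS-5759 in that fit, against 6.01% of tested genes higher. CDKN1A at 6 h was at 0.34 and 0.33 (adjusted p = 0.5087 and 0.5816 by limma, 0.0002515 and 0.0007911 with the block). From 6 to 18 h in vehicle FOXM1 (0.33), RBL2 (0.35) and E2F5 (0.48) rose, against 7.97% of tested genes.

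After group means were removed, the 38 genes still varied together between arrays. The median correlation of their residuals over the 48 arrays was 0.51 across the 703 pairs, 654 of them above 0 (range -0.46 to 0.95), and the median with other tested genes was 0.01. Arrays with the same replicate number deviated together, and the part of that in this correlation was not tested. BUB1 (0.70), CDCA3, KIF14 and BORA had the highest median correlation with the other members, and CDC25B (0.22), BIRC5 (0.25), CCNA2 (0.29) and MKI67 (0.34) the lowest.

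Other probe sets gave mostly the same direction. Of 34 further probe sets above the filter, for 20 of the genes, 29 had the sign of the chosen probe set with Ind/GSK at 2 h, 31 with GS-5759 at 2 h, 28 and 27 at 6 h, and 34 for the vehicle rise from 6 to 18 h. For AURKA a probe set nearly as bright as the chosen one was at -0.65 with Ind/GSK at 2 h and -0.58 with GS-5759, while a dimmer one was at -0.18 and -0.39. When all probe sets were averaged, the AURKA call with Ind/GSK at 2 h was lost.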

How the data were processed

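RNA from BEAS-2B cells was hybridised to 48 one-colour Affymetrix arrays. The authors summarised the scans into 1 linear intensity per probe set, and the submitters' processing notes name PLIER and Affymetrix Expression Console. Versions and any normalization between arrays are not given in the sources used here. Array medians of log2 intensity lay between 7.00 and 7.17 and arrays correlated at 0.968 to 0.997. The number of arrays limits the precision.

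Of 54675 probe sets, 41091 carried 1 gene symbol, 1801 several and 11721 none, and 62 were controls. Symbols were updated through the RefSeq gene table (41037 matched). Values were taken as log2(intensity + 16). The brightest probe set stood for each of 19775 genes, and the 14409 genes with a mean above the 40th percentile were tested. limma 3.58.1 in R 4.3.3 fitted 12 group means to all 48 arrays (36 residual degrees of freedom), with Benjamini-Hochberg adjustment within each comparison and a threshold of 0.05. The analysis was tested on simulated data.

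Sample titles number the replicates, and samples with the same number deviated together: all 76 same-numbered pairs of groups correlated above 0.1 (0.201 to 0.931), and other pairs reached 0.764. The replicate block is therefore given for the 38 genes, and for the other lists at 2 h and 6 h, where it changes a call or a count. Members called against vehicle were named with every array's value, at most 12 of them by size, as were the 4 largest vehicle changes. The members and lists were chosen with earlier results of these data known. Promoters came from RefSeq, GRCh38.p14. Alternatives were other pseudocounts, scalings, filters, probe set rules, a variance trend, smaller fits and left-out replicates.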

Additional observations from a re-analysis of the deposited data

Results flagged for a closer look

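In 7 of 60 groups of 4 arrays checked, 1 array lay apart from the other 3 by more than 0.829 of the group's range, a limit that chance passes in about 1 in 20 groups. The same arrays were checked for several genes, so the checks are not independent and 7 of 60 cannot be read as an excess. The median level of the 38 genes was 11.816 in Ind/GSK 2 h replicate 1, against 11.471 to 11.512 in the others, on the log2(signal + 16) scale. CCNF read 241.53 in GS-5759 2 h replicate 3, against 378.55 to 404.72. AURKA read 5268.7 in Ind/GSK 2 h replicate 1, against 3522.8 to 3685.6. MKI67 read 1384.8 in GS-5759 6 h replicate 4, against 1713.2 to 1768.5, and CCNB2 read 2751.9 in the same array, against 3229.8 to 3333.1. CENPA read 3157.6 in vehicle 18 h replicate 4, against 2501.4 to 2585.8. CDC25C read 1673.8 in vehicle 2 h replicate 1, against 1564.6 to 1574.8.

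The response to treatment differed between 2 h and 6 h for BORA (0.902), CCNF (0.965) and HJURP (0.841), by limma's test of that difference on the mean of both treatments.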

How the results depend on the processing

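Counts below are of the 38 genes. Averaging all probe sets of a gene lowered the median level at 1, 2, 6 and 18 h to 11.53, 11.264, 11.085 and 11.706 in vehicle, 11.323, 10.928, 10.896 and 11.749 with Ind/GSK and 11.414, 10.973, 11.022 and 11.75 with GS-5759. It left 1 call for Ind/GSK at 1 h and 0 for vehicle 6 h against 2 h, and turned the CCNB2 difference at 6 h to 0.0078. With the replicate block the counts were 5, 20 and 15 for Ind/GSK at 1, 2 and 6 h, 16 and 5 for GS-5759 at 2 and 6 h, 3, 5 and 8 for the change of the response over the 3 successive steps, and 9, 7, 30 and 13 for vehicle at 2 h against 1 h, 6 h against 2 h, 6 h against 1 h and 18 h against 1 h. Under the block the counts of the other comparisons stayed within 1.5 times. In fits to the compared arrays alone, 1 gene passed for each treatment at 2 h, and 0 for Ind/GSK at 6 h and for vehicle at 6 h against 2 h, 6 h against 1 h and 18 h against 1 h. Centring on the 75th percentile and quantile normalization each gave 1 call for the change from 1 to 2 h and 5 for vehicle 18 h against 1 h. Testing all genes without a filter gave 0 for vehicle 6 h against 2 h. Other settings were chosen after seeing the data. Compared arrays alone with the block gave 10 and 3 for GS-5759 at 2 and 6 h, 13 for Ind/GSK at 6 h, 7, 7 and 3 for the changes of the response and 0 for vehicle 6 h against 2 h. The block without replicate 3 gave 3 and 7 for Ind/GSK at 1 and 2 h, 3 for GS-5759 at 6 h, 2 for the change from 6 to 18 h, 7 for vehicle 2 h against 1 h and 6 for 18 h against 1 h. Leaving out arrays gave 0 to 1, 4 to 12 and 0 to 6 calls for Ind/GSK at 1, 2 and 6 h, 4 to 8 for GS-5759 at 2 h, 0 to 1 and 0 to 4 for the changes from 1 to 2 h and 2 to 6 h, 0 to 2, 0 to 1, 3 to 23, 29 to 36 and 0 to 6 for vehicle at 2 h against 1 h, 6 h against 2 h, 6 h against 1 h, 18 h against 6 h and 18 h against 1 h, 35 to 37 and 33 to 37 for Ind/GSK and GS-5759 at 18 h against 6 h, and 0 in the other comparisons. The cause of these shifts was not tested. Of the values of single genes, 2836 kept their side of the threshold, and uncalled values that changed sign are counted among them. Of the others, 191 lost their call, 31 gained one and 1 changed sign with a call in either fit.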
